A study of Lobosphaera incisa with 32 samples.

Results

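The transcriptome of the green microalga Lobosphaera incisa, strain SAG 2468, after 72 h without nitrogen under high light was set against that of nutrient-replete cells. The comparison covers the genes with an FPKM (fragments mapped to a gene, scaled to its length and to the sequencing depth) of at least 1 in either condition, which were 13827 of 16722 genes. The remaining 2895 genes were below this minimum in both conditions and were not described further. Replete cells (Control) were taken at 0 h from log-phase, semi-continuous cultures under normal light of 75 µmol photons per square metre and second. The starved cells (Nst72hHL) came from such cultures, were washed, and spent 72 h in medium without nitrogen under high light of 150 µmol photons. All cultures were axenic, were kept at the same temperature and were bubbled with the same mixture of CO2 in air. Nitrogen supply, light and culture time all differed between the conditions, so their parts in a difference cannot be told apart. Each condition had 2 biological replicates of 4 technical replicates each, that is 16 of the 32 libraries of the series. The gene tables give 1 pooled value per condition, so the values used here carry no spread between cultures, and no test of a difference was run. The libraries pooled 148630272 expected counts in Control and 214719396 in Nst72hHL. The remaining conditions, 12 h without nitrogen under high light (Nst12hHL) and 72 h without nitrogen under normal light (Nst72hNL), share the Control libraries with this comparison and are given only beside its values.

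Lobosphaera incisa is known for storing the long-chain polyunsaturated arachidonic acid (ARA) in triacylglycerols when nitrogen runs out. Microalgae without nitrogen stop dividing, dismantle part of their photosynthetic and ribosomal machinery, and deposit neutral lipid in lipid droplets. Autophagy, the enclosure of cytoplasm in a double membrane and its delivery to the vacuole, is the main route by which eukaryotic cells recycle their own contents in starvation. It is carried out by the products of the ATG genes, which start the membrane, feed it with lipid, mark it with a phosphoinositide and decorate it with the ubiquitin-like protein ATG8. The roles given here for named genes are those of the yeast, animal, plant or algal proteins, and the deposited tables do not pair gene IDs with product names. Names were available for 31 genes, and all other genes are described by number, level and length.

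Most genes stood at a similar level in both conditions, while a smaller group differed by very large factors. The ratio used throughout is the log2 of (Nst72hHL FPKM + 1) over (Control FPKM + 1), which understates the difference of low genes. Its median over the 13827 genes was −0.07, and the central span, from the lower to the upper quartile, ran from −0.56 to 0.39. The lowest and highest 5% of genes lay below −1.82 and above 1.61. In all, 10563 genes (76.4%) were within 2-fold. At least 2-fold higher were 1404 genes (10.2%), and at least 2-fold lower were 1860 genes (13.5%). The lower side also had more genes at larger factors, with 565 genes at least 4-fold lower against 434 higher, and 242 genes at least 8-fold lower against 162 higher. In bulk samples, fewer transcripts per cell and a larger pool of other RNA cannot be told apart, so each ratio is relative to the rest of the RNA.

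The balance of higher and lower genes depended on the scale. FPKM summed to 670399 in Control and to 580059 in Nst72hHL, whereas TPM, in which each transcript is a share of all transcripts, sums to the same total in both. On the TPM scale the median ratio was 0.12, a shift of 0.19, and 1952 genes were at least 2-fold higher against 1660 lower. The share of the 2-fold differences that were higher was accordingly 43.0% with FPKM and 54.0% with TPM. After the median of all genes was subtracted from each FPKM ratio, 1564 genes were at least 2-fold higher and 1661 lower, or 48.5% higher. The sum of FPKM is set by the mean length of the transcripts sequenced, which was longer in the starved cells. The TPM-weighted mean transcript length was 1492 bases in Control and 1724 bases in Nst72hHL, and it was 1703 and 1811 bases in Nst12hHL and Nst72hNL.

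**Figure D1:**
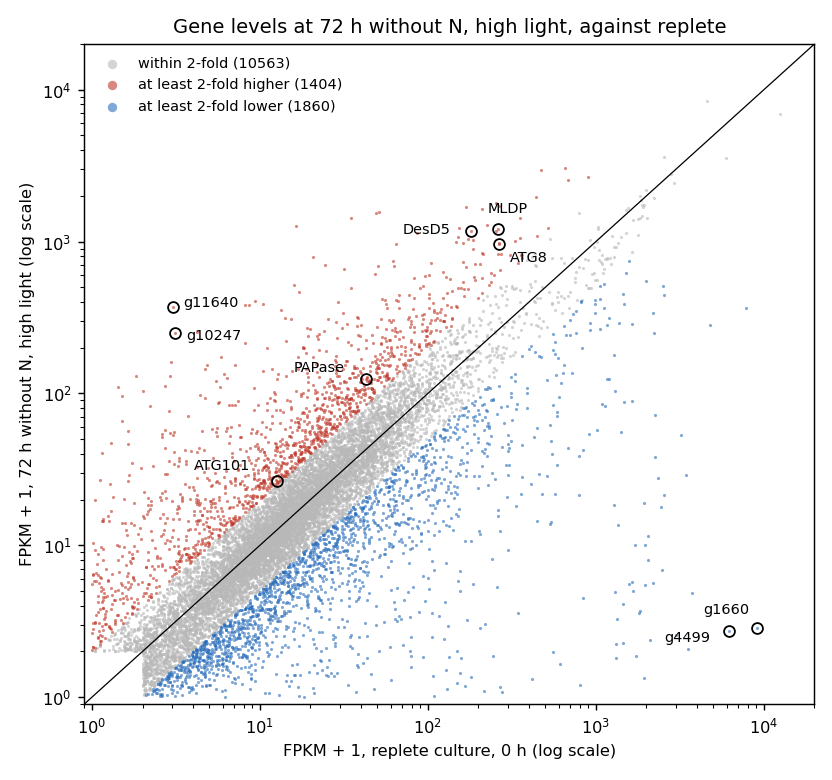
FPKM + 1 of the 13827 genes in replete cells (x axis) and after 72 h without nitrogen under high light (y axis), both on log scales, 1 point per gene from 1 pooled value per condition. Red points are the 1404 genes at least 2-fold higher, blue points the 1860 genes at least 2-fold lower and grey points the 10563 genes within 2-fold. The line marks equal levels, and circled genes are named in the text. The lower right holds genes above 1000 FPKM in replete cells and below 10 FPKM after starvation, for which the upper left has no counterpart.

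The authors' quantification gave each FPKM value a 95% interval, which covers the uncertainty of counting and read assignment in the pooled libraries and not the spread between cultures. The intervals of the 2 conditions did not overlap for 5576 genes that were higher in Nst72hHL and 6743 that were lower. They overlapped for 1508 genes (10.9%), and 1 of the genes beyond 2-fold was among these. At this depth, counting error was thus small beside the 2-fold limit for nearly every gene counted beyond it. At the minimum itself, the 101 genes whose higher value lay between 1.0 and 1.1 FPKM had a median ratio of −0.31, and the 89 genes just below, between 0.9 and 1 FPKM, one of −0.25.

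The 2 lowest ratios were those of genes that had been among the most abundant of the replete cell. With 1 FPKM added to each value, ratios as low as these can be reached only from a high Control level. The gene g1660, which ranked 2 of all genes in Control, stood at 9135 FPKM there (interval 9119 to 9149) and at 1.85 FPKM in Nst72hHL (1.68 to 2.03). Its ratio of −11.65 was the lowest of all genes, and its level was 4938-fold lower. The gene g4499, ranked 4 in Control, stood at 6205 FPKM (6193 to 6215) against 1.74 FPKM (1.59 to 1.90), or 3566-fold lower, with a ratio of −11.15. Both genes were already far below their Control levels after 12 h, at 68.0 FPKM for g1660 and 66.2 FPKM for g4499. After 72 h under normal light g1660 was at 2.22 FPKM and g4499 at 1.48 FPKM, close to the values under high light. Their main transcripts are 1061 bases long for g1660 and 1271 bases for g4499, and the files give no product for either.

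These 2 genes belonged to a set of 25 genes that had at least 1000 FPKM in Control and less than 10 FPKM in Nst72hHL. Within that set the Control levels ran from 1304 to 9135 FPKM with a median of 1827, and the Nst72hHL levels from 0.340 to 9.03 FPKM with a median of 2.70. At 12 h without nitrogen the same genes ran from 2.06 to 232 FPKM with a median of 24.2. Under normal light at 72 h they ran from 0.330 to 101 FPKM, with a median of 3.03. The choice of these genes fixed their high Control and low Nst72hHL levels, so only the values of Nst12hHL and Nst72hNL were not set by it.

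The 2 highest ratios were found in genes with little expression in replete cells. Choice by the ratio itself favours genes with a low Control level. The gene g11640 had 2.03 FPKM in Control (1.86 to 2.23) and 369 FPKM in Nst72hHL (367 to 371), 182 times the Control level, with a ratio of 6.93 that was the highest of all genes. Its rank by level was 12681 in Control and 230 in Nst72hHL. The gene g10247 had 2.12 FPKM in Control (2.00 to 2.25) and 248 FPKM in Nst72hHL (247 to 249), 117 times the Control level and a ratio of 6.32. The 2 genes had different courses over the remaining conditions. The gene g11640 was at 21.9 FPKM in Nst12hHL and at 742 FPKM in Nst72hNL, so that its value under high light was between them. The gene g10247 was highest after 12 h, at 350 FPKM, and stood at 194 FPKM after 72 h under normal light.

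Few genes were near silent in one condition and clearly expressed in the other. There were 33 genes with less than 1 FPKM in Control and at least 10 FPKM in Nst72hHL, and 69 genes with the opposite order. Only 3 genes at the minimum were listed at 0 in Control alone and 1 gene at 0 in Nst72hHL alone. Over all 16722 genes, 850 were listed at 0 in Control and 837 in Nst72hHL.

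The most abundant genes were in part different ones in the 2 conditions. At least 1000 FPKM was reached by 111 genes in Control and by 56 genes in Nst72hHL, and 26 genes reached it in both. Of the 111 genes, 66 were at least 2-fold lower in the starved cells (against 13.5% of all genes). Of the 56 genes, 27 were at least 2-fold higher than in Control (against 10.2% of all genes). Each set was chosen by a high value in 1 of the 2 conditions compared, which favours the direction counted. The 100 most abundant genes of Control held 32.1% of all TPM there and 12.9% in Nst72hHL, and 35 of them were also among the 100 most abundant of Nst72hHL. Of the 1000 most abundant genes, 580 were shared. Of the Control top 100, 62 were at least 2-fold lower and 0 higher, a direction to which the choice of the highest Control levels contributes. The 100 most abundant genes of Nst72hHL held 24.1% of TPM, against 15.5% in Control. Of these, 46 were at least 2-fold higher and 1 lower, and their choice by Nst72hHL level contributes to that direction. The 10 most abundant genes of Control held 9.21% of its TPM and 3.38% in Nst72hHL, and those of Nst72hHL held 6.71% and 5.08% in Control, so the starved cell had the flatter distribution of the 2. The median main transcript of the Control top 100 was 805 bases and that of the Nst72hHL top 100 was 1031 bases.

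The share of genes that differed depended on abundance. The 1 FPKM added to each value shrinks the ratios of low genes, so their shares here are understated. With nothing added, 1649 rather than 1404 genes were at least 2-fold higher, and 2430 rather than 1860 lower. The shares by abundance class were not recomputed in that way. Among genes with a mean of 10 to 30 FPKM over both conditions, the largest class, 356 (7.74%) were at least 2-fold higher and 461 lower, with a median ratio of −0.02. Among the 691 genes of 100 to 300 FPKM, 28.9% were higher and 18.8% lower, with a median of 0.25. Among the 318 genes above 300 FPKM the balance was turned, with 24.2% higher and 34.3% lower and a median of −0.43. The 1532 genes of 1 to 3 FPKM also had more lower genes (18.9%) than higher ones (6.85%). Genes that stood at least 2-fold higher were therefore most frequent just below the top of the scale, and lower genes at its top.

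**Figure D2:**
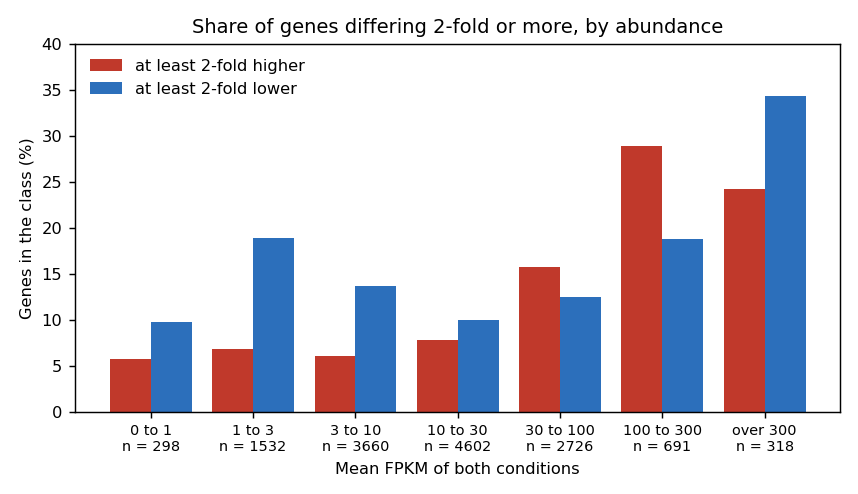
Percent of genes at least 2-fold higher (red) or lower (blue) at 72 h without nitrogen under high light, by the mean FPKM of both conditions. The number of genes in each class stands under the bars. The share of higher genes is largest at 100 to 300 FPKM (28.9%) and that of lower genes above 300 FPKM (34.3%).

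Transcript length made less difference to the share of higher genes than to that of lower genes. In the shortest of 5 length classes, 71 to 1187 bases, 9.28% of 2770 genes were at least 2-fold higher and 15.3% lower. In the longest, 2861 to 53114 bases, 9.15% of 2766 genes were higher and 10.7% lower. The median ratios of the 5 length classes lay between −0.11 and −0.04.

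A minority of genes carried most of the difference in the transcript pool. The 1404 higher genes held 6.65% of TPM in Control and 31% in Nst72hHL. The 1860 lower genes held 37.7% of TPM in Control and 6.32% in Nst72hHL. The 10563 genes within 2-fold held 55.6% and 62.7%. As a share of expected counts, the higher genes held 9.18% of Control (Wilson 95% interval 9.174% to 9.183%, counting error only) and 36.7% of Nst72hHL (36.657% to 36.670%). The lower genes held 33.9% (33.915% to 33.930%) and 5.29% (5.282% to 5.288%) of the counts. These classes were set by the same values, so the shares describe their weight and are no separate result.

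The same gene classes were followed through the remaining conditions. Control and Nst72hHL chose the genes, so the ratios in Nst72hHL are set by that choice, and those in Nst12hHL and Nst72hNL are in part, being taken to the same Control. The higher genes had a median of 12.7 FPKM in Control, 25.0 FPKM in Nst12hHL, 39.7 FPKM in Nst72hNL and 46.5 FPKM in Nst72hHL. They held 13.6% of TPM in Nst12hHL and 32.2% in Nst72hNL. The lower genes had medians of 20.3 FPKM in Control, 19.5 FPKM at 12 h, 4.60 FPKM under normal light and 4.38 FPKM under high light. At 12 h their share of TPM was 17.8%, well under the 37.7% of Control, while their median FPKM was near the Control value. For the higher genes the median ratio to Control was 0.68 in Nst12hHL and 1.47 in Nst72hNL, against 1.60 in Nst72hHL. For the lower genes it was −0.51, −1.60 and −1.56 in the same order.

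**Figure D3:**
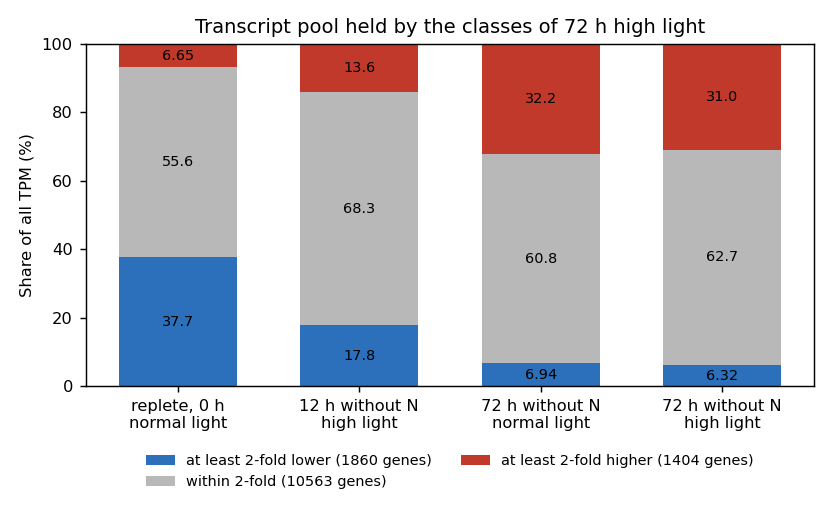
Share of all TPM (percent) in each condition held by the genes that were at least 2-fold lower (blue), within 2-fold (grey) or at least 2-fold higher (red) at 72 h without nitrogen under high light. The classes are fixed by the first and last bars. The red share is 6.65% in replete cells, 13.6% in Nst12hHL, 32.2% in Nst72hNL and 31% in Nst72hHL.

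Taken against the same Control over all genes, 72 h under normal light gave 1369 of 13789 genes (9.93%) at least 2-fold higher and 1942 (14.1%) lower, with a median ratio of −0.04. At 12 h under high light 2386 of 14043 genes (17.0%) were higher and 806 (5.74%) lower, with a median of 0.20. The 3 comparisons share the Control libraries, so these counts are not independent of each other.

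Among the genes with names, those tied to lipid storage stood far above the bulk of the transcriptome. DesD5, the desaturase that makes the final double bond of ARA, had 179 FPKM in Control (177 to 180) and 1178 FPKM in Nst72hHL (1175 to 1181). Its ratio of 2.71 was above that of 98.5% of all genes, and its rank by level was 475 in Control and 42 in Nst72hHL. MLDP, the major lipid droplet protein of green algae, had 261 FPKM (259 to 263) against 1212 FPKM (1208 to 1215), a ratio of 2.21 above that of 97.4% of genes, with ranks of 327 and 41. DesD5 and MLDP thus held adjacent ranks in the starved cell. They differed in course, since MLDP was higher at 12 h, at 1500 FPKM, than at 72 h under either light, with 901 FPKM under normal light. DesD5 had 570 FPKM in Nst12hHL and 1316 FPKM in Nst72hNL.

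The qRT-PCR list of the study, 10 genes that include ATG8, held 4 genes at least 2-fold higher (against 10.2% of all genes) and 0 lower (against 13.5%), with a median ratio of 0.69. The study picked PAPase for its level in these data and picked its reference genes for constant levels in starvation, so the list is not independent evidence of a direction. PAPase, a putative acid phosphatase, had 42.0 FPKM in Control (41.3 to 42.7) and 123 FPKM in Nst72hHL (122 to 124), a ratio of 1.53 above that of 94.5% of genes. VTC4, which in yeast polymerises polyphosphate as part of a complex of the vacuole membrane, was the lowest of the list, with 60.5 FPKM (59.8 to 61.1) against 43.6 FPKM (43.1 to 44.1) and a ratio of −0.46. PAPase and VTC4 therefore lay on opposite sides of the median gene. VTC4 was at 27.9 FPKM in Nst72hNL and at 44.8 FPKM in Nst12hHL, so among the starved conditions its lowest value was under normal light.

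The 3 genes of fatty acid beta-oxidation were within 2-fold on the FPKM scale, like 76.4% of all genes. MFP, the multifunctional protein of the peroxisomal cycle, had 75.0 FPKM (74.1 to 75.8) in Control and 138 FPKM (137 to 139) in Nst72hHL. Its ratio of 0.87 passed 2-fold on the TPM scale at 1.08, but was 0.96 after the median TPM ratio was subtracted. KAT, the thiolase of the last step, had 63.5 FPKM (62.6 to 64.4) against 90.1 FPKM (89.2 to 91.0) and a ratio of 0.50. The putative ABC transporter, a member of the family that imports fatty acyl groups into plant peroxisomes, had 25.0 FPKM (24.6 to 25.3) against 20.9 FPKM (20.6 to 21.1) and a ratio of −0.25. The enzymes of the cycle and the transporter thus stood on opposite sides of 0. KAT was at 67.6 FPKM in Nst72hNL and at 91.3 FPKM in Nst12hHL.

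SNRP and COX3 stayed near their replete levels. The study chose them as qRT-PCR reference genes for stable expression in starvation, so their levels here are no independent evidence of stability. SNRP, a small nuclear ribonucleoprotein by its abbreviation, had 211 FPKM (208 to 213) against 219 FPKM (217 to 222), with a ratio of 0.06. COX3, by its name a subunit of cytochrome c oxidase, had 295 FPKM (292 to 298) against 293 FPKM (291 to 296), with a ratio of −0.01 that was 0.20 on the TPM scale. Their ranks among all genes were close, at 404 and 415 for SNRP and at 292 and 299 for COX3.

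**Figure D4:**
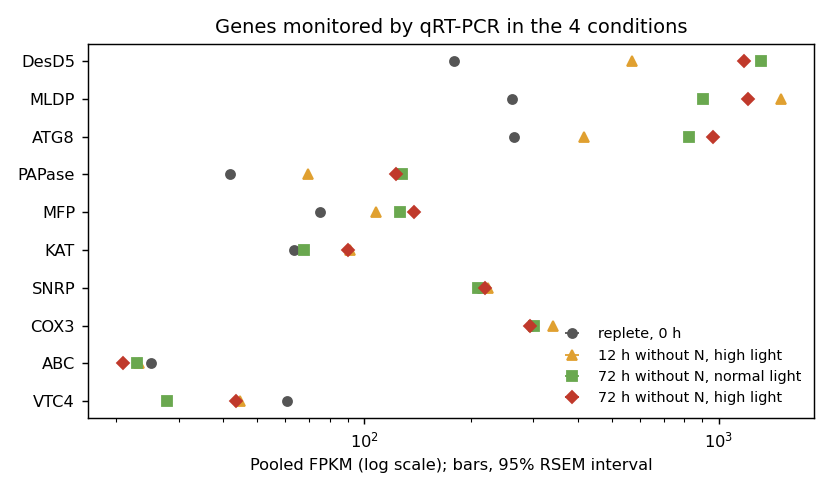
Pooled FPKM (log scale) of the 10 genes followed by qRT-PCR in the study, in replete cells and in the 3 conditions without nitrogen, ordered by the ratio at 72 h under high light. Bars are the 95% quantification intervals and are mostly hidden by the symbols. The red diamonds of DesD5, MLDP, ATG8 and PAPase lie more than 2-fold to the right of the grey circles, and that of VTC4 lies to the left.

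The 22 ATG-related genes as a group were somewhat above the median gene, with ATG8 far apart from the rest. Their median ratio was 0.32, against −0.07 over all genes, and they ran from −0.26 to 1.86. At least 2-fold higher were 2 of the 22 (9.09%, against 10.2% of all genes), and 0 were lower (against 13.5%). The ratio was above 0 in 17 genes, and 19 genes lay above the median of all genes. Among all genes, 53.8% lay below a ratio of −0.01, that of COX3. Quantification intervals of the 2 conditions were apart in 16 genes that were higher and 3 that were lower, against 40.3% and 48.8% of all genes. With TPM, 6 of the 22 were at least 2-fold higher (against 13.7% of all genes), and 4 after the median of all genes was subtracted (against 11.3%). The group median was 0.38 in Nst12hHL, where that of all genes was 0.20, and 0.36 in Nst72hNL, where that of all genes was −0.04, each against the same Control.

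In the ATG1 kinase complex, which starts the autophagosome, ATG101 and ATG1 were higher and ATG13 was not. ATG101, a stabilising subunit of this complex in animals, had 11.6 FPKM (11.1 to 12.1) in Control and 25.5 FPKM (24.9 to 26.1) in Nst72hHL, with a ratio of 1.07. ATG1, the kinase itself, had 6.96 FPKM (6.73 to 7.20) against 14.6 FPKM (14.3 to 14.8). Its level was 2.09 times that of Control, but the ratio with 1 FPKM added was 0.97 and just missed 2-fold. ATG13, the regulatory partner of the kinase, had 5.25 FPKM (5.08 to 5.43) against 5.15 FPKM (5.01 to 5.30), with overlapping intervals. At 72 h under normal light ATG101 stood at 32.8 FPKM and ATG1 at 17.7 FPKM, both above their values under high light.

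The 5 genes listed with the ATG9 complex, which supplies lipid to the growing membrane, all had higher values with intervals apart, as did 40.3% of all genes, and their median ratio was 0.53. ATG18, which binds the phosphoinositide of the membrane in yeast, was the most abundant of them, with 53.6 FPKM (52.5 to 54.8) against 106 FPKM (104 to 107) and a ratio of 0.97. VMP1, a membrane protein of the endoplasmic reticulum, had 13.8 FPKM (13.4 to 14.2) against 26.7 FPKM (26.3 to 27.2) and a ratio of 0.91. ATG18 was at 52.5 FPKM at 12 h, near its Control level, whereas VMP1 was already at 28.3 FPKM. ATG9, the transmembrane protein of the seed vesicles, had 10.9 FPKM (10.7 to 11.2) against 16.3 FPKM (16.0 to 16.6), a ratio of 0.53. ATG2, the lipid transfer protein, had 7.48 FPKM (7.33 to 7.64) against 10.8 FPKM (10.6 to 10.9), a ratio of 0.47. The second ATG18-like gene did not share the level of ATG18, with 33.8 FPKM (33.1 to 34.5) against 35.5 FPKM (34.9 to 36.1) and a ratio of 0.07.

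The genes of the class III PI3-kinase complex, which makes the phosphoinositide that ATG18 binds, had a median ratio of 0.09. All 6 were within 2-fold, as were 76.4% of all genes. ATG14, the subunit that directs the kinase to autophagy, was the highest, with 10.9 FPKM (10.6 to 11.3) against 19.8 FPKM (19.5 to 20.2) and a ratio of 0.80. ATG6, the homologue of animal Beclin, had 13.6 FPKM (13.1 to 14.0) against 18.1 FPKM (17.7 to 18.6) and a ratio of 0.40. The catalytic subunit did not follow them. VPS34 had 18.7 FPKM (18.3 to 19.1) against 15.5 FPKM (15.2 to 15.8), the lowest ratio of all ATG-related genes at −0.26, or −0.06 on the TPM scale. VPS15, the regulatory subunit of VPS34, had 5.45 FPKM (5.29 to 5.61) against 5.37 FPKM (5.24 to 5.50). AMRA1, named for a regulator of Beclin, had 8.40 FPKM (8.19 to 8.61) against 8.62 FPKM (8.44 to 8.80). The intervals of VPS15 and of AMRA1 overlapped between the conditions. The gene named UVRAG/ATG14 had 7.45 FPKM (7.21 to 7.70) against 8.35 FPKM (8.15 to 8.58) and a ratio of 0.15.

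In the ubiquitin-like conjugation systems, ATG8 stood apart from the enzymes that act on it. ATG8, the protein that is coupled to the lipid of the autophagosome membrane, had 265 FPKM (262 to 267) in Control and 962 FPKM (958 to 967) in Nst72hHL, 3.64 times as high. Its ratio of 1.86 was above that of 96.2% of all genes, and its rank was 321 in Control and 62 in Nst72hHL. ATG8 was at 416 FPKM in Nst12hHL and at 827 FPKM in Nst72hNL, so its highest value was that of high light. ATG4, the protease that trims ATG8 and releases it, had 14.2 FPKM (13.8 to 14.7) against 21.0 FPKM (20.6 to 21.5), a ratio of 0.53, and its highest value of 32.1 FPKM was at 12 h. ATG7, the activating enzyme of both systems, had 26.8 FPKM (26.4 to 27.3) against 31.9 FPKM (31.5 to 32.3), a ratio of 0.24. ATG3, which passes ATG8 to its lipid, had 33.2 FPKM (32.4 to 34.0) against 38.2 FPKM (37.5 to 38.9), a ratio of 0.20, and 58.3 FPKM at 12 h. In the trimming, activating and transfer enzymes the ratio thus stayed within 2-fold, and each was higher at 12 h than at 72 h.

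The second conjugation system couples ATG12 to ATG5, and its members lay close to or moderately above their replete levels. ATG12, the ubiquitin-like partner, had 23.4 FPKM (22.8 to 24.0) against 36.6 FPKM (36.0 to 37.3), a ratio of 0.63 and the second highest of the conjugation genes. ATG5, its acceptor, had 35.3 FPKM (34.6 to 36.1) against 38.2 FPKM (37.5 to 38.8), a ratio of 0.11. The genes of the transfer enzyme and of the scaffold were lower by small amounts. ATG10, the transfer enzyme of ATG12, had 13.6 FPKM (13.1 to 14.0) against 11.7 FPKM (11.4 to 12.1), a ratio of −0.19. ATG16, the scaffold that joins the ATG12 and ATG5 pair in yeast, had 7.83 FPKM (7.56 to 8.12) against 7.30 FPKM (7.08 to 7.53), a ratio of −0.09 that was 0.10 on the TPM scale.

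**Figure D5:**
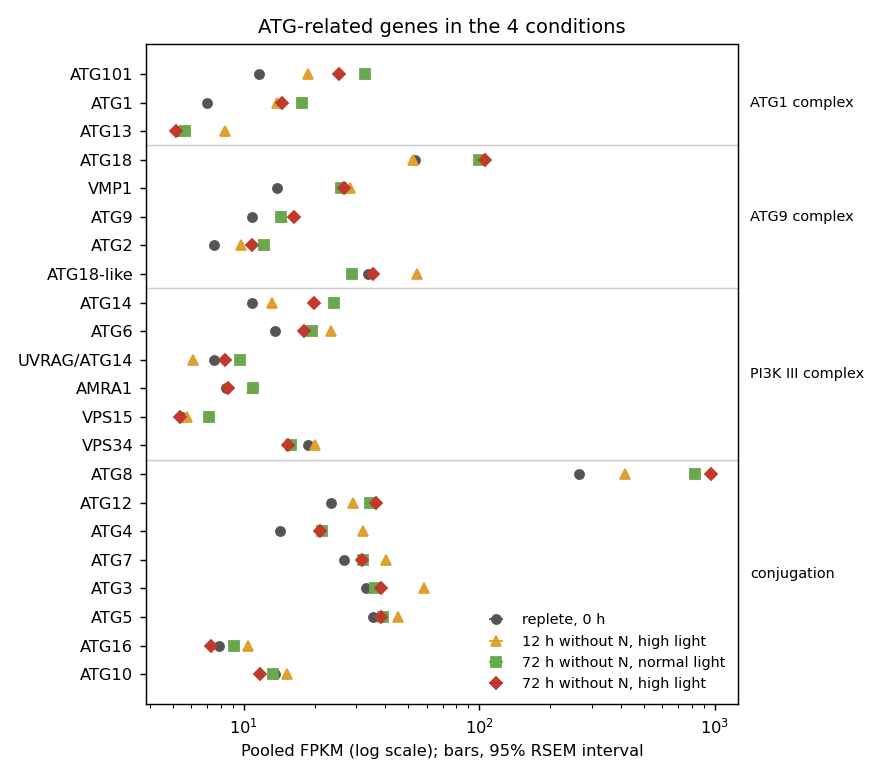
Pooled FPKM (log scale) of the 22 ATG-related genes in Control (grey circles), Nst12hHL (yellow triangles), Nst72hNL (green squares) and Nst72hHL (red diamonds), grouped by complex. Bars are the 95% quantification intervals. ATG8 is the most abundant in every condition, at 265 FPKM in replete cells and 962 FPKM at 72 h under high light, and most other genes lie within 2-fold of their grey circle.

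At the level of single transcripts, 1711 genes had at least 2 transcripts with 1 FPKM or more in either condition. The difference between the highest and the lowest transcript ratio within a gene had a median of 0.48 on the log2 scale and reached at least 1 in 323 genes (18.9%). In 23 genes, 1 transcript was at least 2-fold higher while another was at least 2-fold lower, and 16 of these genes were within 2-fold as a whole. The most abundant transcript was another one in Nst72hHL than in Control for 187 genes (10.9%). These values rest on the assignment of short reads to overlapping transcripts and carry no spread between cultures.

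Among the autophagy genes, the transcripts of ATG12, ATG7 and ATG18 differed unequally. For ATG12, transcript g3729.t1 of 1999 bases had 13.1 FPKM (12.6 to 13.6) in Control and 25.4 FPKM (24.9 to 26.0) in Nst72hHL. Its shorter form g3729.t2, of 1494 bases, had 10.3 FPKM (9.70 to 10.9) against 11.2 FPKM (10.6 to 11.8). The longer form thus made up 56.0% of ATG12 in Control and 69.5% in Nst72hHL. For ATG7, g5114.t1 of 3058 bases had 13.7 FPKM (12.5 to 14.7) against 20.3 FPKM (19.2 to 21.5), while g5114.t2 of 2857 bases had 13.2 FPKM (12.0 to 14.4) against 11.6 FPKM (10.4 to 12.8). The 2 forms of ATG7 were near equal in Control, at 50.9% and 49.1%, and stood at 63.6% and 36.4% in Nst72hHL. For ATG18, the main form g11431.t4 made up 60.9% in Control and 58.7% in Nst72hHL, and g11431.t5 made up 17.8% and 25.8%. ATG18 form g11431.t5 had 9.56 FPKM (8.94 to 10.2) against 27.3 FPKM (26.5 to 28.1), a ratio of 1.42. That was the highest among the transcripts of ATG12, ATG7 and ATG18 with at least 1 FPKM in either condition.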

How the data were processed

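RNA was sequenced from 8 libraries per condition (2 biological by 4 technical replicates). Per the labels, single-end and paired-end reads were used, without saying which libraries had which. Per the submitters' processing notes, the tools included RSEM 1.2.9 with Bowtie 1.0.0, after CASAVA 1.8 and cutadapt 1.1, as well as DESeq. What annotation version they used was not given in the sources used here. Deposited by the authors were 1 pooled expected count, TPM and FPKM value per gene, transcript and condition, with 95% intervals for FPKM. The deposited isoform percent is each transcript's share of its gene in percent. Effective length equalled length in every row, so no correction for fragment length was made. The authors' comparison tables (mean normalised counts, folds and p-values) were not used.

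Ratios were log2((FPKM + 1)/(FPKM + 1)) over genes with at least 1 FPKM in either condition, described by size (2-fold) with no test. No p-value was computed, since no value per replicate was used. Total expected counts ran from 148630272 to 329774484 per condition, and intervals cover counting and assignment error only. Transcript pool shares used TPM. Scripts were tested on simulated data. Named genes were the 22 ATG-related and 10 qRT-PCR genes of the study (31 distinct) and the 2 IDs with the highest and the 2 with the lowest ratio among genes with at least 10 FPKM in either condition. Members and lists were chosen with earlier results of these data known. Alternatives were other scalings (TPM, median-of-ratios scaling, depth- and length-scaled counts), pseudocounts, minimums and the most abundant transcript. Calculations used pandas 2.3.3, numpy 2.4.6 and scipy 1.17.1 under Python 3.11.15, and figures matplotlib 3.10.9.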

Additional observations from a re-analysis of the deposited data

How the results depend on the processing

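No paired analysis was possible because the tables used here hold 1 pooled value per condition. No replicate was left out and no count test was run, again because values were pooled. The median ratio of all genes, −0.07, was −0.01 with median-of-ratios scaling (a factor of 1.05), 0.12 with TPM, −0.02 with no minimum, 0.01 with a minimum of 10 FPKM and 0.00 after centring on it, an alternative chosen after seeing the data. The share of TPM in genes at least 2-fold higher, 31%, was 32.9%, 37.4%, 30.8% (depth- and length-scaled counts), 31.4% (pseudocount of 0.1), 31.5% (no pseudocount), 30.7% (minimum of 10 FPKM), 28.8% (most abundant transcript) and 33.1% (centred), where the first 2 are median-of-ratios scaling and TPM. The 2 ATG genes at least 2-fold higher became 4 with median-of-ratios scaling, 6 with TPM and 4 when centred. The 565 genes at least 4-fold lower became 897 with a pseudocount of 0.1 and 967 with none. The 1860 genes at least 2-fold lower became 2366 with a pseudocount of 0.1, 2430 with none and 1237 with a minimum of 10 FPKM. Counts of genes at least 2-fold higher ran from 1170 to 1952. The 9 named genes past 2-fold kept their side in 81 of 81 recomputed values. They include the 2 IDs with the highest and the 2 with the lowest ratio, which were picked by these same values. A change of the minimum also leaves the ratio of a gene as it is. The 81 values are therefore no test of how firm these differences are. ATG1 and ATG18 passed 2-fold with median-of-ratios scaling, TPM and centring, and ATG1 also with a smaller or no pseudocount. VMP1, ATG14 and MFP passed with TPM alone. Less the median TPM ratio, VMP1 stood at 1.0, ATG14 at 0.9 and MFP at 0.96. Signs of ATG13, VPS15 and COX3, all near 0, turned positive with median-of-ratios scaling, TPM and centring, and that of ATG16 with TPM alone. Depth limited few values, but the spread between cultures is unknown for all of them.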
